A study of Drosophila melanogaster with 10 samples.

Results

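The genes described here encode the proteins of the cytoplasmic ribosome of Drosophila melanogaster and a few relatives of them, named -like. All are called ribosomal protein genes here, by their symbols. They were taken as every row of the count table whose FlyBase symbol begins with RpL or RpS, with sta (stubarista) and RpS2 (also called string of pearls, sop) included. This gave 92 of 14352 genes, 39 of the small subunit and 53 of the large subunit, and 86 of them were kept because their TPM averaged above 2 in 1 or both groups. RpL15 has no row among the counts used here. RNA was sequenced from ventral nerve cords (VNCs, the trunk part of the fly central nervous system) of adult w1118 flies, a laboratory strain that lacks eye pigment and carried no other labelled allele, with both sexes mixed and an age of 3 to 10 days by the labels. In the injured group (n = 5 libraries) 6 legs, 2 wings and the head were cut off and the flies lay on a humid 2% agar plate for 5 hr, while the uninjured group (n = 5) was kept intact without food for 5 hr in vials of 2% agar. Housing and injury therefore cannot be told apart. Each library was made from many pooled VNCs, with 60 to 80 collected per sample by the labels, so every level is an average over neurons, glia and other cells of the dissected tissue, in which fewer cells of a type and less RNA per cell cannot be told apart. Libraries are called by the number of their column in the count table (uninjured 1 to 5, injured 1 to 5), which is not tied here to the replicate names of the labels.

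A cytoplasmic ribosome joins a small subunit, which reads the mRNA, to a large subunit, which forms the peptide bond, and each subunit holds ribosomal RNA and a fixed set of proteins in near equal number. Ribosomal protein mRNAs are short and abundant, and their genes are commonly regulated as a group. In flies, losing one copy of many of these genes gives the Minute phenotype of slow growth and thin bristles. Several ribosomal proteins have a second gene, or paralog, and some of these are used mainly in the germline. Because their mRNAs are taken to be steady, ribosomal protein genes are common reference genes in Q-PCR, and RpL32 and RpL28 served as references in this study.

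Gene counts summed to 5146470 to 6640492 per library. The reads removed as ribosomal or small nuclear RNA made up 19.5% to 22.4% of each uninjured library (median 20.3%) and 19.6% to 26.9% of each injured library (median 25.1%), and the part of this difference in the results below was not tested. The tissue carried its labelled cell types. The 9 neuronal markers measured summed to 809.3 to 974.2 TPM in uninjured and 853.1 to 928.6 TPM in injured libraries, and the 9 glial markers to 1938 to 2612 TPM and 1401 to 2149 TPM. Markers of other tissues were also present, with 7 hemocyte markers at 74.6 to 116.8 TPM in uninjured and 48.5 to 65.7 TPM in injured libraries, 5 fat body markers at 693.5 to 1403 and 551.2 to 704.8 TPM, 7 gut markers at 74.5 to 567.9 and 27.2 to 52.6 TPM, and 9 muscle markers at 258.5 to 386.2 and 109.7 to 1248 TPM. The 5 photoreceptor markers summed to 6.82 to 22.5 TPM in uninjured and 1.10 to 10.5 TPM in injured libraries, and germline markers are given with RpS5b.

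Ribosomal protein genes were among the abundant mRNAs of the VNC. The deposited TPM, a level per kilobase of the longest transcript, averaged above 100 in the uninjured libraries for 77 of the 86 genes, and the median gene stood at 244.8 TPM. The highest mean over all 10 libraries was that of RpL41, the shortest ribosomal protein, at 758.7 TPM. RpL21 followed at 633.3 TPM. RpS27A, whose protein is made as a fusion to ubiquitin, stood at 546.0 TPM, RpS18 at 514.7 TPM and the stalk protein RpLP2 at 479.2 TPM. The lowest genes that passed the filter were paralogs or relatives of a more abundant gene, with RpS10a at 2.17 TPM, RpS5b at 7.88 TPM, RpLP0-like at 10.8 TPM, RpL7-like at 14.2 TPM and RpL34a at 37.0 TPM. Within the uninjured group the coefficient of variation of a gene's TPM had a median of 11.2% over the 86 genes.

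The share of all gene counts taken by the 92 genes gives the simplest view of the group. It was 2.74%, 3.02%, 2.92%, 3.33% and 2.57% in uninjured libraries 1 to 5, and 3.21%, 2.51%, 2.55%, 2.40% and 2.21% in injured libraries 1 to 5. Injured 2 to 5 all lay below the lowest uninjured library, whereas injured 1 lay above all but one of them, so the groups overlapped through that library. Both subunits followed the same course, with the small subunit at 1.08% to 1.39% of counts in uninjured libraries and 0.919% to 1.06% in injured 2 to 5 but 1.34% in injured 1. The large subunit took 1.49% to 1.94% in uninjured libraries, 1.29% to 1.48% in injured 2 to 5 and 1.87% in injured 1.

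**Figure D1:**
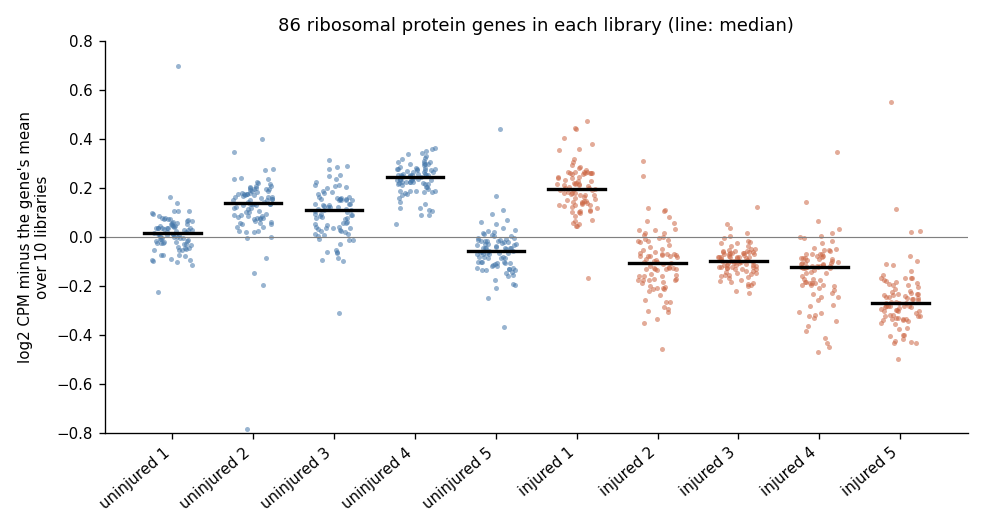
Each point is 1 of the 86 ribosomal protein genes, plotted by library as its log2 CPM (its count relative to the TMM-scaled library total) minus its own mean over the 10 libraries, with a black line at the median. The medians of injured 2 to 5 lie between -0.27 and -0.10 while injured 1 (0.19) lies with the uninjured libraries (-0.06 to 0.24). 12 points of RpS5b and RpS10a fall beyond the axis limit of 0.8.

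To ask whether injury changed these genes, injured and uninjured libraries were compared gene by gene with edgeR's quasi-likelihood test, fitted to all 9365 genes that passed the filter, with p-values adjusted over all of them (Benjamini-Hochberg) and a gene called at an adjusted p under 0.01. Of the 86 ribosomal protein genes, 1 was called lower after injury and 0 were called higher, against 6.61% of all genes tested called lower and 7.15% called higher. DESeq2 and limma-voom each called 1 lower and 0 higher as well (all genes tested, 8.33% and 6.11% lower), and at an unadjusted p under 0.05 edgeR put 21 genes lower and 0 higher (all genes tested, 19.2% and 17.1%). The fitted log2 fold change was nevertheless below 0 for 80 of the 86 genes, with a median of -0.17, where 52% of all genes tested were below 0 and their median was -0.01. This median rested in part on single libraries, at -0.11 without injured 5, -0.13 without uninjured 4 and -0.25 without injured 1. The median was -0.17 for the 36 small subunit genes as well as for the 50 large subunit genes. The median standard error of a gene's log2 fold change was 0.09.

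The called gene was RpS14b, one of a pair of genes for the small subunit protein S14. Its TPM was 133, 152, 134, 143 and 119 in uninjured 1 to 5 (136 ± 12.2, SD, n = 5) and 137, 91.9, 99.6, 88.2 and 89.0 in injured 1 to 5 (101 ± 20.7, SD, n = 5). Injured 2 to 5 lay below every uninjured library and injured 1 did not. The log2 fold change was -0.39 (SE 0.09, adjusted p = 0.00659), and it was below 0 in each of 26 alternative fits, from -0.51 to -0.35, with adjusted p from 7.96e-10 to 0.029. The call rested on single libraries. The adjusted p rose to 0.0179, 0.019, 0.0207 and 0.0148 without uninjured 1, 2, 3 and 4, and to 0.0208, 0.0161, 0.0266 and 0.0261 without injured 2, 3, 4 and 5.

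Injured 1 stood apart from the other injured libraries at these genes. It was the highest injured library for 80 of 86 genes, where it was the highest for 26.4% of all genes tested. The ratio of injured 1 to the median of the other 4 injured libraries had a median of 0.35 on the log2 scale over the 86 genes (1.27-fold), with a range of -0.47 to 0.83, against 0.01 over all genes tested. For 65 genes injured 1 lay inside the uninjured range, for 20 above it and for 1 below it. It was the highest of all 10 libraries for 20 of the 86 genes (all genes tested, 10.8%). No gene of the 86 had all 5 injured libraries below all 5 uninjured ones, compared with 8.45% of all genes tested, but 40 had injured 2 to 5 below them all, compared with 11.9%. The count of ribosomal protein genes above all uninjured libraries was 0 for all 5 injured libraries (all genes tested, 8.06%) and 0 for injured 2 to 5 (13.3%).

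Without injured 1, the same test called 23 of the 86 ribosomal protein genes lower and 0 higher, against 7.29% and 9.32% of all genes tested. They were 11 genes of the small and 12 of the large subunit, and they included RpS14b, so that 22 were called only in the absence of this library. DESeq2 called 46 lower and limma-voom 19 lower on the same 9 libraries (all genes tested, 9.23% and 7.02%), with DESeq2 calling all 23 and limma-voom 19 of these genes, and both called 0 higher, with 1 and 0 genes higher at an unadjusted p under 0.05. By edgeR at that threshold 66 were lower (all genes tested, 21.8%) and 1 higher (20.5%). The median log2 fold change over the 86 genes was -0.25 and 83 were below 0 (all genes tested, 52.1%). Among the 23 genes called, the change ran from -15.3% to -28.7% with a median of -20.4%, and adjusted p from 9.02e-05 to 0.00985. At an adjusted p under 0.05 there were 54 lower without injured 1 (all genes tested, 15.1%) and 3 lower with it (12.2%). When all 10 libraries were kept and weighted by quality in limma-voom, 7 were called lower (7.97%), and with scaling factors of 1 and no injured 1, 17 were (8.04%). Injured 1 is 1 of the 5 labelled replicates of its group, and these counts were chosen for display because it stood apart.

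**Figure D2:**
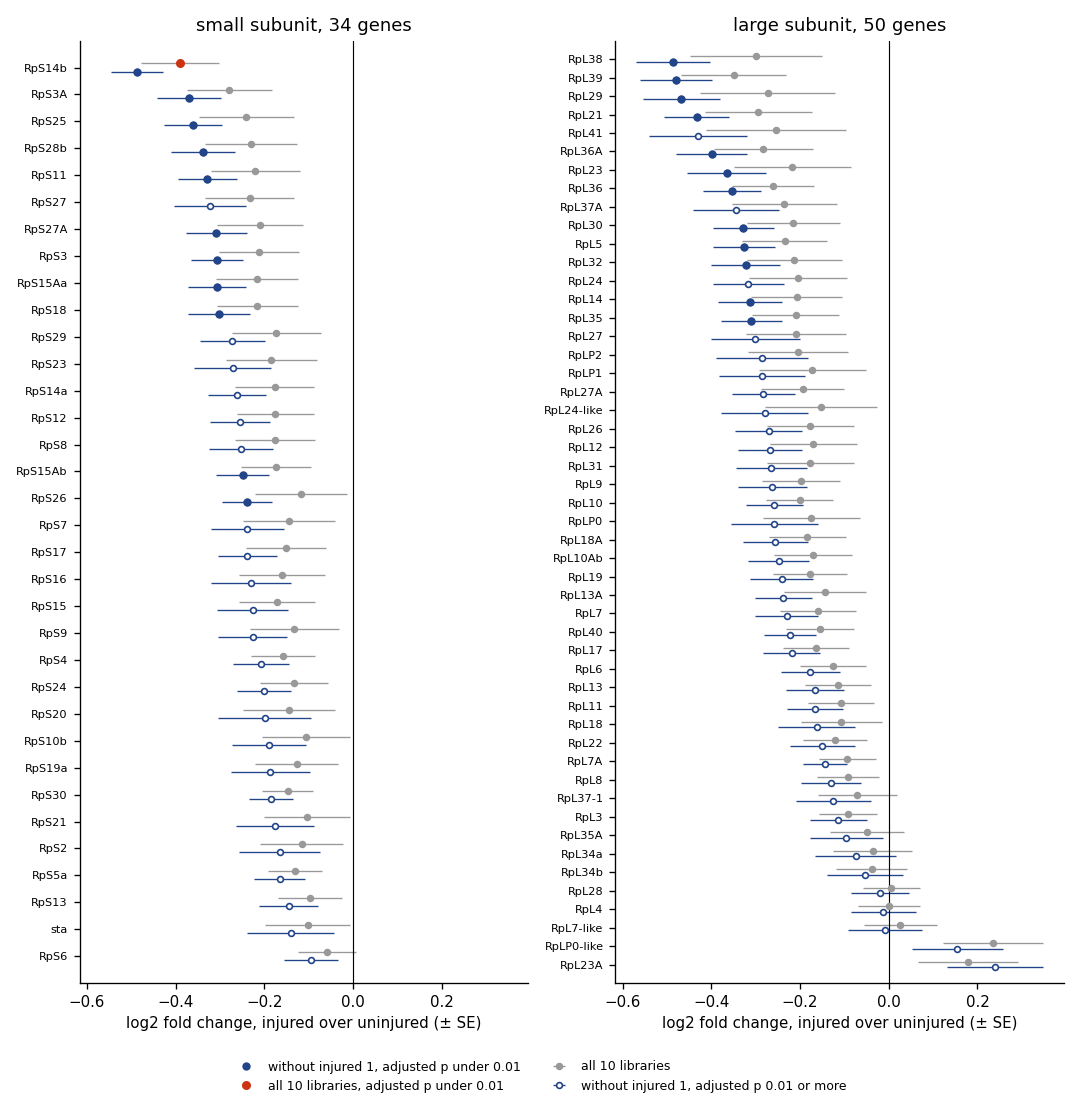
Log2 fold change of injured over uninjured libraries (x axis, with its standard error) for each ribosomal protein gene, ordered within each subunit, from all 10 libraries (grey) and without injured 1 (blue). Filled blue marks the 23 genes with an adjusted p under 0.01 without injured 1, and red marks RpS14b, the only one with all libraries. RpS5b and RpS10a, with wide errors, are not drawn.

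The 4 most abundant genes called only without injured 1 were RpL21, RpS27A, RpS18 and RpL36. RpL21 stood at 667, 728, 739, 767 and 624 TPM in the uninjured libraries and at 827, 473, 584, 461 and 464 TPM in the injured ones. Its injured 1 value was the highest of all 10, and its log2 fold change was -0.29 (SE 0.12, adjusted p = 0.0981) with that library and -0.43 (SE 0.07, adjusted p = 0.00117) without it. RpS27A moved from a mean of 592.8 ± 56.9 to 499.1 ± 105.7 TPM, and its log2 fold change went from -0.21 (adjusted p = 0.140) to -0.31 (adjusted p = 0.00642) when injured 1 was left out. In a later annotation its exons share positions with Ip259 on the same strand. Ip259 averaged 130.9 TPM in uninjured and 107.3 TPM in injured libraries (log2 fold change -0.25, adjusted p = 0.197, and -0.39 without injured 1). Any reads of Ip259 within the RpS27A count were not tested. RpS18 went from -0.22 (adjusted p = 0.109) to -0.30 (adjusted p = 0.00726), and RpL36 from -0.26 (adjusted p = 0.0600) to -0.35 (adjusted p = 0.00214). Over the 26 alternative fits the adjusted p ran from 8.13e-08 to 0.249 for RpL21, from 0.000167 to 0.334 for RpS27A, from 0.000179 to 0.290 for RpS18 and from 5.47e-06 to 0.176 for RpL36.

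The reference genes RpL32 and RpL28 had unlike values. RpL32, the widely used rp49 of fly Q-PCR, stood at 230, 246, 222, 274 and 193 TPM in uninjured 1 to 5 and at 272, 187, 193, 164 and 161 TPM in injured 1 to 5. On this scale injured 3 (192.8) lay just above uninjured 5 (192.6), while on the TMM-scaled CPM injured 2 to 5 lay below every uninjured library. The log2 fold change of RpL32 was -0.21 (SE 0.11, adjusted p = 0.172), and -0.32 (SE 0.08, adjusted p = 0.00949) without injured 1, with adjusted p from 0.000766 to 0.388 over the 26 alternatives. RpL28 stood at 79.6, 79.2, 75.5, 86.4 and 67.1 TPM in uninjured and at 87.4, 75.9, 77.9, 73.5 and 62.9 TPM in injured libraries. The groups overlapped almost wholly, and its log2 fold change was 0.01 (SE 0.06, adjusted p = 0.961) with all libraries and -0.02 (SE 0.07, adjusted p = 0.850) without injured 1. The difference between these fold changes was not itself tested. In the later annotation RpL28 holds 5 snoRNA genes and shares exon positions with nSMase (9.65 TPM in uninjured libraries) on the other strand. RpL32 has no such overlap there. Any reads of other genes within the RpL28 count were not tested.

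**Figure D3:**
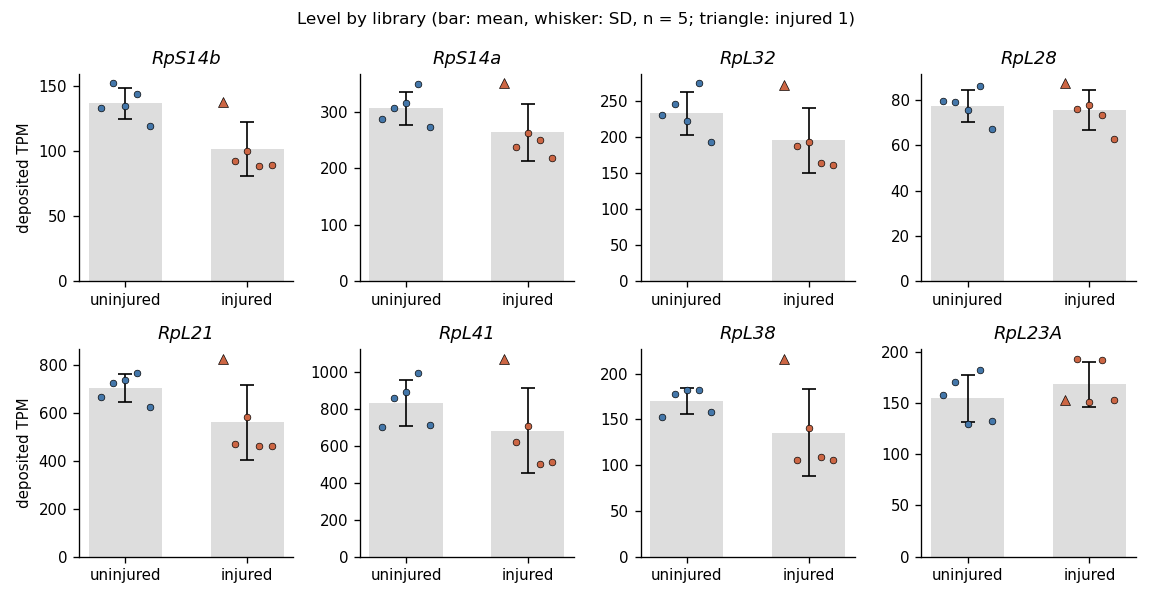
Deposited TPM (y axis) of 8 ribosomal protein genes in the 5 uninjured and 5 injured libraries, with bars at the mean and whiskers of 1 SD, and a triangle for injured 1. The triangle stands above the other injured points for RpS14b, RpS14a, RpL32, RpL28, RpL21, RpL41 and RpL38, but not for RpL23A.

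After RpS5b and RpS14b, the lowest fold changes were those of RpL39, RpL38 and RpL21, all of the large subunit. RpL39, which lines the tunnel through which the new peptide leaves, stood at 192, 248, 214, 206 and 202 TPM in uninjured and 235, 142, 164, 128 and 145 TPM in injured libraries. Its log2 fold change was -0.35 (SE 0.12, adjusted p = 0.0492), and -0.48 (SE 0.08, adjusted p = 0.00121) without injured 1. In the later annotation the exons of RpL39 and RpL12 overlap on opposite strands, and reads of such genes cannot be told apart without strand. RpL38 stood at 153, 178, 182, 182 and 158 TPM in uninjured and 216, 106, 141, 109 and 106 TPM in injured libraries. Injured 1 was 1.77-fold above the median of the other injured libraries at this gene, whose log2 fold change was -0.30 (SE 0.15, adjusted p = 0.167) with it and -0.49 (SE 0.08, adjusted p = 0.00123) without it. RpL41 stood at 705, 859, 893, 995 and 715 TPM in uninjured and 1073, 622, 709, 502 and 515 TPM in injured libraries, and was not called in either fit (adjusted p = 0.268 and 0.0129). Over the 26 alternatives the adjusted p ran from 6.41e-06 to 0.142 for RpL39, from 7.92e-07 to 0.360 for RpL38 and from 0.000714 to 0.539 for RpL41.

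The proteins of the lateral stalk, which recruits the translation factors, were not called in either fit. RpLP0, the base of the stalk, went from 252.6 ± 38.9 to 217.6 ± 44.3 TPM (log2 fold change -0.17, SE 0.11, adjusted p = 0.271). RpLP1 and RpLP2, its acidic arms, had log2 fold changes of -0.17 (SE 0.12, adjusted p = 0.328) and -0.21 (SE 0.11, adjusted p = 0.210). Without injured 1 the 3 genes stood at -0.26, -0.29 and -0.29, with adjusted p of 0.0671, 0.0461 and 0.0590. RpL40, the large subunit protein made as a ubiquitin fusion, stood at -0.16 on the log2 scale (SE 0.08, adjusted p = 0.164), and at -0.22 (adjusted p = 0.0142) without injured 1. Of the small subunit, sta, the fly homolog of the laminin receptor precursor, stood at -0.10 (SE 0.10, adjusted p = 0.473) and RpS2 at -0.12 (SE 0.09, adjusted p = 0.398). Over the 26 alternatives RpL40 passed the threshold in 1 (adjusted p from 0.00234 to 0.419), and RpLP0 (from 0.034), RpLP1 (from 0.0202), RpLP2 (from 0.0276), sta (from 0.275) and RpS2 (from 0.174) in 0.

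A few genes stood at or above 0. RpL23A, a protein at the mouth of the exit tunnel, had another order of libraries than most, at 158, 171, 130, 183 and 133 TPM in uninjured and 153, 194, 152, 192 and 153 TPM in injured libraries. Injured 2 and 4 were its highest libraries, and its log2 fold change was 0.18 (SE 0.11, adjusted p = 0.273). In the later annotation its exons share positions with CG7974 on the other strand and with Uhg7, a snoRNA host, on its own, so that its count can hold reads of other genes. RpLP0-like, a relative of RpLP0 whose yeast counterpart Mrt4 acts in assembly of the large subunit, stood at 9.34, 9.57, 10.1, 11.7 and 9.75 TPM in uninjured and 15.1, 11.3, 11.6, 8.81 and 10.9 TPM in injured libraries. The groups overlapped, and the log2 fold change was 0.24 (SE 0.11, adjusted p = 0.150). Its exons overlap those of Jra, the fly Jun gene, on the other strand. Jra rose from 21.5 ± 1.22 to 44.4 ± 8.64 TPM (log2 fold change 1.09, SE 0.09, adjusted p = 2.32e-06), and any reads of Jra within the RpLP0-like count were not tested. RpL7-like, whose row holds the same counts as that of CG34164 in all 10 libraries, stood at 0.03 on the log2 scale (SE 0.08, adjusted p = 0.846), RpL4 at 0.00 (SE 0.07, adjusted p = 0.993), and RpS10a, with 5 to 19 reads per library, at 0.50 (SE 0.36, adjusted p = 0.343).

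In 14 pairs of related genes, the less abundant gene ran from near background to close to its partner. It did not pass the filter in 6 pairs. RpL22-like, RpS19b, RpS28a, RpS28-like, RpL10Aa and RpL37-2 gave at most 8 reads in any library and at most 1.86% of the summed TPM of their pair, and since no deposited count was below 1 these values are close to the floor of the table. The rows of RpS28a and RpS28-like hold the same counts as rows of other genes, at 1 to 4 reads per library. Among the pairs in which both genes passed, RpL24-like, whose yeast relative is a factor of large subunit assembly, made up 41.9% to 47.1% of its pair with RpL24 in the uninjured libraries and 42.3% to 47.2% in the injured ones. RpL34a made up 29.1% to 32.6% and 29.5% to 33.3% beside RpL34b, and RpS15Ab 17.7% to 19.4% and 18.8% to 19.98% beside RpS15Aa. RpLP0-like made up 3.47% to 4.62% and 4.42% to 5.99% beside RpLP0, RpL7-like 3.81% to 4.66% and 4.50% to 5.64% beside RpL7, and RpS10a 1.18% to 4.11% and 2.34% to 5.08% beside RpS10b. The ranges of the groups thus overlapped in every pair named so far in this paragraph.

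RpS14b was the exception among the 14 pairs. It made up 29.1% to 33.0% of the summed TPM of RpS14a and RpS14b in the 5 uninjured libraries (median 30.3%) and 26.0% to 29.0% in the 5 injured ones (median 27.9%), so that even injured 1 lay below the uninjured range. The 2 ranges were nearly contiguous, at 28.95% for the highest injured and 29.12% for the lowest uninjured library, and with 14 pairs examined no test was made of the share. RpS14a itself was at 287, 307, 316, 349 and 274 TPM in uninjured and 351, 237, 262, 251 and 218 TPM in injured libraries, at -0.18 on the log2 scale (SE 0.09, adjusted p = 0.172), and -0.26 (adjusted p = 0.0114) without injured 1, over alternatives with adjusted p from 0.00123 to 0.402. The coding sequences of paralogs are alike, and how the authors assigned reads that match both genes is not given in the sources used here, so the split within a pair is uncertain.

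**Figure D4:**
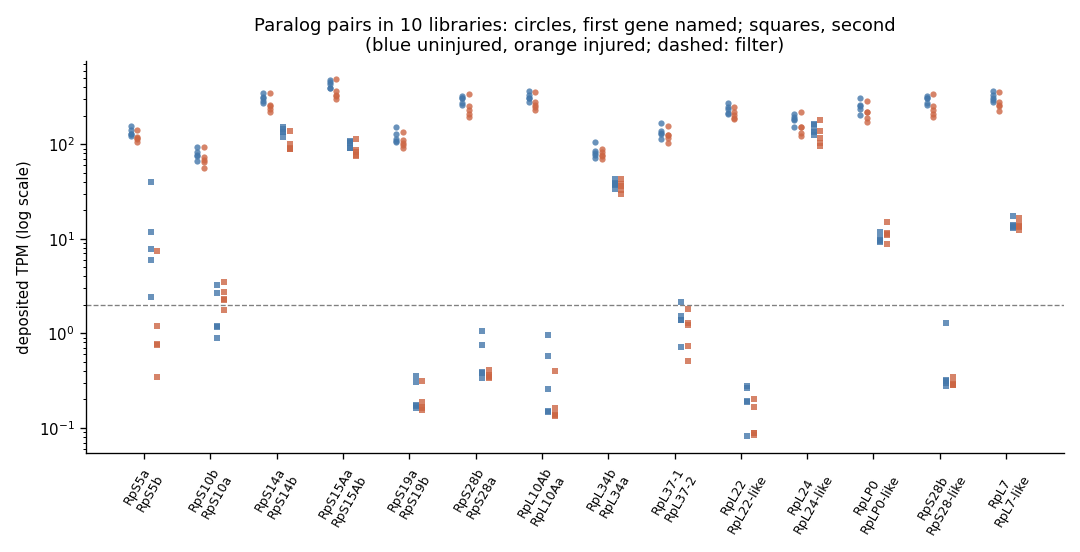
Deposited TPM (y axis, log scale) of both genes of the 14 pairs in each library, with the first gene named below as circles and the second as squares, uninjured in blue and injured in orange, and a dashed line at the filter of 2 TPM. The second gene lies under the line in nearly all libraries for RpS19b, RpS28a, RpL10Aa, RpL37-2, RpL22-like and RpS28-like, and RpS5b spreads most, from 0.347 to 40.3 TPM.

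RpS5b, a paralog of RpS5a known for its expression in the ovary, varied more within the uninjured group than any other of the 86 genes. It stood at 6.00, 11.9, 7.76, 40.3 and 2.40 TPM in uninjured and at 0.770, 1.19, 7.35, 0.347 and 0.760 TPM in injured libraries, with 3 to 325 reads per library. The highest injured library (injured 3) lay inside the uninjured range and the other 4 lay below it. The log2 fold change was the lowest of the 86 genes at -2.63 but carried a standard error of 0.81 (adjusted p = 0.0325, and 0.00462 to 0.106 over the alternatives). Some germline RNAs were highest in the same libraries. The oocyte RNA osk stood at 1.71, 12.05, 1.25, 26.9 and 0.596 TPM in uninjured and at 0.255, 0.219, 2.47, 0.0766 and 0.108 TPM in injured libraries, highest in uninjured 4 and, of the injured, in injured 3, as RpS5b was, and it was not called (adjusted p = 0.0283). vas and piwi, which did not pass the filter, were also highest in these libraries. The others followed in part or not. The highest aub values were in uninjured 2 (3.21 TPM, with 3.13 in uninjured 4) and injured 5 (2.38 TPM). For bam the highest library was uninjured 4 (0.436 TPM), but of the injured it was injured 1 (0.331 TPM, with 0.284 in injured 3). Over the 5 germline markers measured (vas, bam, osk, piwi and aub), the sum, most of it osk in uninjured 4, was 3.86 to 36.4 TPM in uninjured and 2.37 to 6.28 TPM in injured libraries, and their part in the RpS5b values was not tested. RpS5a had no such spread, at 121 to 154 TPM in uninjured and 106 to 141 TPM in injured libraries, at -0.13 on the log2 scale (SE 0.06, adjusted p = 0.146).

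The 86 genes varied together from library to library. The Pearson correlation of a gene's log2 CPM with the mean of the other 85 over the 10 libraries had a median of 0.93, and it exceeded 0.8 for 75 genes and 0.9 for 55. It was as high within the groups, with medians of 0.91 over the 5 uninjured and 0.93 over the 5 injured libraries, and 0.92 over 9 libraries without injured 1. These points share their libraries, so the values describe these samples only. Uninjured 4 was the highest uninjured library for 77 of 86 genes and uninjured 5 the lowest for 59, and injured 5 was the lowest injured library for 62. RpS10a (-0.72), RpL23A (-0.33), RpLP0-like (0.07), RpL7-like (0.39) and RpL4 (0.43) were least like the rest. Outside the group, the 5 genes most like the mean of the 86 over the 10 libraries were CG1927 (r = 0.98), Tctp (r = 0.96), whose protein is known as translationally controlled tumor protein, and 3 snoRNAs, small RNAs that guide the modification of ribosomal RNA: snoRNA:Psi28S-1837b (r = 0.95), snoRNA:Psi18S-1377a (r = 0.95) and snoRNA:Psi28S-2626 (r = 0.95). The rows of the latter pair hold the same counts in all 10 libraries, and both lie inside RpS7 in the later annotation, so that reads of RpS7 may be counted in them. With all libraries none of the 5 was called (adjusted p from 0.128 to 0.364), and without injured 1 only snoRNA:Psi28S-1837b was (adjusted p = 0.00827). Of the genes outside the group, 36 of 9279 had r above 0.9.

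In that annotation 28 of the 86 genes hold snoRNA genes, 74 in all. Exon positions are shared with a gene on the other strand by 25 of the 86, and with one on the same strand by 5. The median log2 fold change was -0.15 for the 28 host genes and -0.18 for the other 58. Without injured 1 these medians were -0.23 and -0.26.

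Transcript length went with the level of injured 1. All but 4 of the 86 genes have a longest transcript under 1.5 kb. Across all other genes tested, the median log2 ratio of injured 1 to the median of injured 2 to 5 was 0.18 for 1335 genes under 0.8 kb, 0.14 for 2025 genes of 0.8 to 1.5 kb, 0.06 for 3126 genes of 1.5 to 3 kb and -0.13 for 2793 genes over 3 kb. Ribosomal protein genes had higher medians than these genes of like length, at 0.38 for the 38 under 0.8 kb and 0.29 for the 44 of 0.8 to 1.5 kb. When other genes were limited to those above 50 TPM in the uninjured libraries, the median was 0.31 for 152 genes under 0.8 kb and 0.20 for 117 genes of 0.8 to 1.5 kb. The median ratio was 0.51 for the 5 fat body markers, 0.46 for the 6 hemocyte markers tested and 0.09 for the 9 glial markers, and it was -0.30 for the 9 neuronal, -0.41 for the 9 muscle and -0.46 for the 7 gut markers. The part of length or cell makeup in the injured 1 values was not tested.

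The fold change without injured 1 had the opposite order. Injured 2 to 5 are the denominator of the ratio above and the numerator of this fold change, so this order is in part built in. The median log2 fold change was -0.28 for the 38 ribosomal protein genes under 0.8 kb and -0.23 for the 44 of 0.8 to 1.5 kb. It was -0.11 and -0.11 for the other genes of these lengths. Other abundant genes (above 50 TPM) of these lengths stood at -0.20 and -0.18, between the ribosomal protein genes and all other genes. Genes called lower without injured 1 numbered 15 of the 38 (39.5%) and 6 of the 44 (13.6%). Of other genes of these lengths 6.22% and 8.35% were called lower, and of those above 50 TPM 19.1% and 22.2%. RpL5, the one gene over 3 kb, whose protein binds the 5S rRNA, stood at a log2 fold change of -0.23 with and -0.33 without injured 1.

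**Figure D5:**
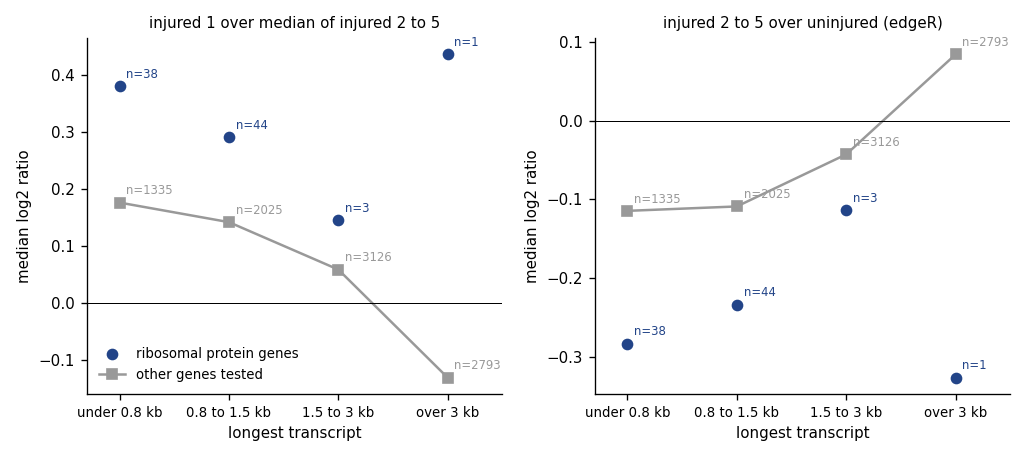
Median log2 ratio (y axis) by length of the longest transcript (x axis) for ribosomal protein genes (blue circles) and other genes tested (grey squares), with the number of genes beside each point. On the left, injured 1 over the median of injured 2 to 5 falls from 0.18 to -0.13 with length in the other genes, and on the right the edgeR log2 fold change without injured 1 runs from -0.11 to 0.08.

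Genes that act with the ribosome were compared from lists named for their role. All 70 mitochondrial ribosomal protein genes passed the filter and 0 were called in either direction by edgeR, DESeq2 or limma-voom. By edgeR, 6.61% of all genes tested were called lower and 7.15% higher. At an unadjusted p under 0.05 edgeR put 24 of the 70 lower and 0 higher (all genes tested, 19.2% and 17.1%). The median log2 fold change of the 70 was -0.21 and 65 were below 0 (all genes tested, 52%). The 2 most abundant, mRpL53 and mRpL28, stood at -0.07 (adjusted p = 0.550) and -0.13 (adjusted p = 0.175). Without injured 1, edgeR called 3 lower and 0 higher of the 70 (all genes tested, 7.29% and 9.32%). The ratio of injured 1 to the other injured libraries had a median of 0.18 in this list, about the level of other short genes. Of 31 translation factors, 0 were called by any of these tools with all libraries, with a median log2 fold change of -0.04. At an unadjusted p under 0.05 edgeR put 2 of the 31 lower and 3 higher (all genes tested, 19.2% and 17.1%). The elongation factors eEF1alpha1 (named Elongation factor 1alpha48D in the files) and eEF2 stood at 612.0 ± 124.0 and 609.4 ± 38.3 TPM in uninjured libraries, with log2 fold changes of -0.19 (SE 0.12, adjusted p = 0.255) and -0.10 (SE 0.07, adjusted p = 0.333). Without injured 1, 1 of the 31 factors was called lower (all genes tested, 7.29%). It was eIF3k (log2 fold change -0.32, adjusted p = 0.00252), named here after its values were seen.

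Of 34 genes for making ribosomes 3 were called higher, a share near the 7.15% of all genes tested, and 0 lower (all genes tested, 6.61%). At an unadjusted p under 0.05 edgeR put 13 of the 34 higher and 1 lower (all genes tested, 17.1% and 19.2%). The median log2 fold change of the 34 was 0.23 and 6 were below 0 (all genes tested, 52%). At an adjusted p under 0.01 DESeq2 called 5 and limma-voom 2 higher, for which no share over all genes tested is given here. The growth regulator Myc (named diminutive in the files) rose from 8.73 ± 0.908 to 18.8 ± 2.78 TPM (log2 fold change 1.16, SE 0.09, adjusted p = 1.44e-06). Nop56, a core protein of box C/D snoRNPs, rose from 9.77 ± 2.29 to 15.4 ± 2.49 TPM (log2 fold change 0.70, SE 0.13, adjusted p = 0.00146), and Fib, the fibrillarin methyltransferase of the same particles, from 8.19 ± 1.57 to 12.1 ± 2.91 TPM (log2 fold change 0.61, SE 0.15, adjusted p = 0.00956). Fib was not called without injured 1 (adjusted p = 0.0201). The most abundant genes not called were Non1 (log2 fold change -0.14, adjusted p = 0.204) and kra (0.03, adjusted p = 0.673).

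Of 17 regulators of ribosome supply and growth, 5 were called higher and 1 lower, against 7.15% and 6.61% of all genes tested. Besides Myc, which is on both lists, REPTOR, a transcription factor held back by TOR signaling, rose from 21.8 ± 1.93 to 35.9 ± 1.77 TPM (log2 fold change 0.77, SE 0.06, adjusted p = 6.63e-07). Xrp1, a transcription factor that acts in flies lacking a copy of a ribosomal protein gene, rose from 52.6 ± 2.62 to 84.1 ± 5.87 TPM (log2 fold change 0.72, SE 0.06, adjusted p = 2.98e-06). The transcription factor foxo, which acts when insulin signaling is low, fell from 15.4 ± 1.97 to 8.99 ± 1.09 TPM (log2 fold change -0.73, SE 0.09, adjusted p = 6.47e-05). The most abundant regulators not called were crc, the fly ATF4 (log2 fold change -0.05, adjusted p = 0.539), and sima, the fly HIF alpha subunit (0.19, adjusted p = 0.0570). The ratio of injured 1 to the other injured libraries had a median of -0.06 on the log2 scale in this list, where it was 0.35 in the ribosomal protein genes.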

How the data were processed

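RNA-seq counts of the VNC of w1118 flies, with 5 uninjured and 5 injured libraries, were analysed. Single-end reads were aligned by the authors to Release 5 of the fly genome, with BWA run inside GeneSifter. Their deposited estimated counts differ from whole numbers by at most 0.00063 and were rounded here. For tool versions and strandedness the sources used here give nothing. The deposited values named TPM are RPKM by their formula, that is, reads divided by the longest transcript in kilobases and scaled to the mapped reads of the library. The share of rRNA and snRNA reads is a percent deposited per library. The submitters' processing notes name limma. Other deposited sheets, with the authors' fold changes and p-values, were not used.

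Per the file headers, columns carry a condition and a number from 1 to 5, which were not tied to label replicates, and the number of per-sample columns not used was 0. Of 14352 genes, 1 was dropped for a value that was no number, and 9365 whose TPM averaged above 2 in a group were tested. Symbols came from gene IDs for 81 members and from the file's own names for 11. Members and lists were chosen with earlier results of these data known. List symbols were matched also by synonym, and those not matched were eEF5, eIF2alpha, eIF2gamma, eIF4B, peno, nucleolin, l(3)72Dn, Tor, Thor, larp, max, Lpin, FASN1, nos and VAChT. Gene positions relative to each other came from BDGP6.54, a later build, and no coordinates or sequences are given.

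Groups were compared mainly by the quasi-likelihood test of edgeR 4.0.16 in R 4.3.3, scaled by TMM, on all 10 libraries without covariates. Its p-values were Benjamini-Hochberg adjusted over 9365 genes, with a threshold of 0.01. It was tested on simulated data with 5 libraries in each group. There it called 2 of 50 genes set to differ 1.2-fold (4%) and 20 of 50 set to differ 1.5-fold (40%). At 2-fold it called 42 of 50 (84%), and of 9165 genes set not to differ it called 0. Log2 CPM used a prior count of 2. The genes named are RpL28 and RpL32, the 5 lowest and 5 highest fold changes, the 5 highest and 5 lowest levels, both genes of every pair, RpLP0, RpLP1, RpLP2, RpL40, RpS27A, sta and RpS2, the 4 most abundant called only without injured 1, and, in each list, up to 3 called per direction and the 2 most abundant not called. The 5 other genes most like the members were added. Others were chosen after their values were seen. Alternatives were DESeq2 1.42.0, limma 3.58.1 (voom, quality weights, log2 TPM), other scalings, filters and thresholds, leaving out each library, and the column number as a block. Nothing in the labels ties libraries to separate fly cultures, and p-values therefore reflect only how these pools differ. Library totals were 5146470 to 6640492 counts.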

Additional observations from a re-analysis of the deposited data

Results flagged for a closer look

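Among the 26 sets of 5 library values examined (the share of counts, and the TPM of ribosomal protein genes described above, in each group), 4 held a library far from the other 4 by Dixon's criterion (gap over range above 0.71), where about 1 set in 20 is picked out by chance. The germline RNA osk was not among these sets, although its injured 3 value (2.47 TPM) also stood far above the next injured library (0.255 TPM). RpL32 in the injured libraries was highest in injured 1, at 272 TPM with the next at 193 TPM (gap over range 0.717). RpS14b in the injured libraries was likewise highest in injured 1, at 137 TPM with the next at 99.6 TPM (0.768). RpS5b was highest in uninjured 4, at 40.3 TPM with the next uninjured library at 11.9 TPM (0.749), and in injured 3, at 7.35 TPM with the next injured library at 1.19 TPM (0.880). Over all 86 ribosomal protein genes on the CPM scale, injured 1 stood out high in this way for 11 genes (12.8%), and over all genes tested for 108 (1.15%). The cause was not tested.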

How the results depend on the processing

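The median log2 fold change of the ribosomal protein genes was below 0 in every alternative run, from -0.28 to -0.11. The number called lower (1 of 86) was 0 with factors of 1, with the authors' mapped reads as library sizes, with limma on log2(TPM + 0.5) or log2(TPM + 1), with no filter on low values, and without the -like genes and minor paralogs (which leaves out RpS14b), 3 at an adjusted p under 0.05, and 7 with sample quality weights, which gave injured 1 the lowest weight (0.394). Leaving out 1 library gave 0 to 23, with 23 only without injured 1. Without injured 3 the 1 gene called was RpS5b in place of RpS14b. Alternatives chosen after seeing the data, all without injured 1, gave 19 with limma-voom, 46 with DESeq2 and 17 with factors of 1. Where no cause is given, the cause was not tested.

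With the column number as a replicate block, 1 gene was called and the median was -0.18. The numbers are not pairs named in the labels, and 3 of 5 libraries correlated best with their own number. Injured 1 was the highest injured library for 83 genes on the deposited TPM and 82 on CPM from library totals, compared with 80.

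Of 36 named genes, 5 changed sign, none of them called. RpL28 went to -0.031 with upper-quartile factors, -0.00576 with factors of 1, -0.0388 with mapped reads, -0.00611 with quality weights, -0.0417 and -0.0414 with limma on TPM, and -0.0207, -0.0158 and -0.0441 with limma-voom, DESeq2 and factors of 1 without injured 1. RpL7-like went to -0.0104, -0.0181, -0.0172 and -0.0166 with upper-quartile factors, mapped reads and limma on TPM, and to -0.000331, -0.00381 and -0.0343 in the same 3 fits without injured 1. Leaving out 1 library gave -0.0193 to 0.0627 for RpL28, -0.00867 to 0.0956 for RpL7-like, -0.0743 to 0.0249 for RpL34a, -0.0677 to 0.0405 for RpL34b and -0.125 to 0.000515 for RpL37-1. The motif windows planned for promoters were not run, since no genome of the build was used here.

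The counts limit what can be said of the 6 genes that did not pass the filter, of RpS10a and of RpS5b. RpS10a had 5 to 19 reads per library.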
